A study of Mus musculus with 48 samples.

Results

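In mouse embryonic stem cells, 306 of 20171 genes had RNAs that were more abundant in cells labelled Upf1 knockout and whose recovery with HA-tagged Tnrc6a, relative to untagged cells, was under a set limit. They were chosen by measured values in the same libraries. The level of a gene was its mean log2(CPM + 1) over 6 libraries, where CPM is the counts-per-million value, its share of the library's total count. A gene was selected on 3 conditions: its level was at least 0.8 higher in inputs labelled Upf1 knockout than in HA-Tnrc6a inputs, its enrichment was under 0.5, and its level in HA-Tnrc6a inputs was at least 1. Enrichment is the level in HA-Tnrc6a immunoprecipitates (IP) less that in HA-Tnrc6a inputs, with the same difference in untagged cells subtracted. Of the 16338 genes that met the level condition, 384 met the condition on Upf1, and the 78 of these with an enrichment of 0.5 or more are used here as the closest comparison.

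Upf1 is an RNA helicase of nonsense-mediated decay, the pathway that degrades RNAs on which translation ends at a stop codon read as premature. Natural targets of this pathway include RNAs with upstream open reading frames, RNAs with an intron in the 3′ untranslated region, and noncoding host transcripts whose introns carry small nucleolar RNAs (snoRNAs) and whose short reading frames are translated. The pathway also acts on mRNAs of its own factors and of stress regulators. Tnrc6a is a GW182 protein that binds Argonaute and recruits deadenylases to RNAs silenced by microRNAs, so Upf1 and Tnrc6a are best known from separate routes of RNA decay.

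The untagged cells were embryonic stem cells of strain 129S6/SvEvTac with the yGlob reporter GFP_5xT71BS and stably transfected FLAG-Cas9::T2A::Blasticidin. The HA-Tnrc6a cells carried HA-AVI-Tnrc6a in addition to GFP_5xT71BS, and the remaining genotypes were HA-AVI-Tnrc6a with Ago2-/- and HA-AVI-Tnrc6a with Upf1-/-. The growth protocol names the first of these lines, cultured on gelatin with LIF, for all samples. Total RNA of cleared lysates (input) and RNA recovered from them on anti-HA beads were sequenced in experiments 3 and 4, which gave 8 groups of 6 libraries. Dishes were grown in triplicate, and the number of clones behind a genotype is not stated, so p-values measure the spread between these dishes.

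Total counts were 11471544 to 73845953 per library. Tnrc6a had a median of 14123 CPM in HA-Tnrc6a IPs and 85.0 CPM in untagged IPs, and Ago2 had a median of 284 CPM in HA-Tnrc6a inputs and of 121 CPM where Ago2 was knocked out. The mRNA of Upf1 was not lower with its knockout label: the median was 148 CPM in inputs with that label and 98.1 CPM in HA-Tnrc6a inputs. The label cannot be checked from mRNA, and no protein values were available here. The phrase labelled Upf1 knockout is therefore used throughout. All 18 listed stem cell markers were present with a summed level of 10353 to 10917 CPM in HA-Tnrc6a inputs. None of the 4 measured genes of the 2-cell-like list reached a level of 1. Primitive endoderm markers summed to 99.3 to 355 CPM in Ago2 knockout IPs and to 170 to 808 CPM in IPs labelled Upf1 knockout. Of these 14 markers, 12 rose between those groups in edgeR's quasi-likelihood test, where 30.1% of 18886 genes did. Their part in the comparison of the same IPs below was not tested. In inputs 10 of the 14 were lower and 1 was higher with the Upf1 knockout label than in HA-Tnrc6a cells, where 29.0% and 29.5% of 19444 genes were. None of the 306 RNAs is on that list. In bulk samples fewer cells of a type and less RNA per cell cannot be told apart.

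The input difference of the 306 RNAs ran from 0.80 to 2.46, with a median of 0.97. Their enrichment ran from -1.51 to 0.49 with a median of -0.36, and 237 of them, or 77.5%, were below 0. Over genes with a level of at least 1 the median enrichment was -0.21, and 62.1% were below 0. That background includes genes over the enrichment limit, which the selection left out. It therefore cannot show whether the 306 RNAs stood out. Just inside the Upf1 limit were Acacb at 0.80003 and Mef2b at 0.80023, and just outside it were Hgh1 at 0.798 and Aagab at 0.796. At the enrichment limit, Hspb8 at 0.494 and Zfp689 at 0.478 were inside, and Pcnx at 0.514 and Hrk at 0.519 were outside. At the level limit, Aspa at 1.046 and Bend6 at 1.079 were inside, and Morn1 at 0.968 and 2610035D17Rik at 0.889 were outside. The plot of both selection values shows no gap between the selected RNAs and their neighbours.

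**Figure D1:**
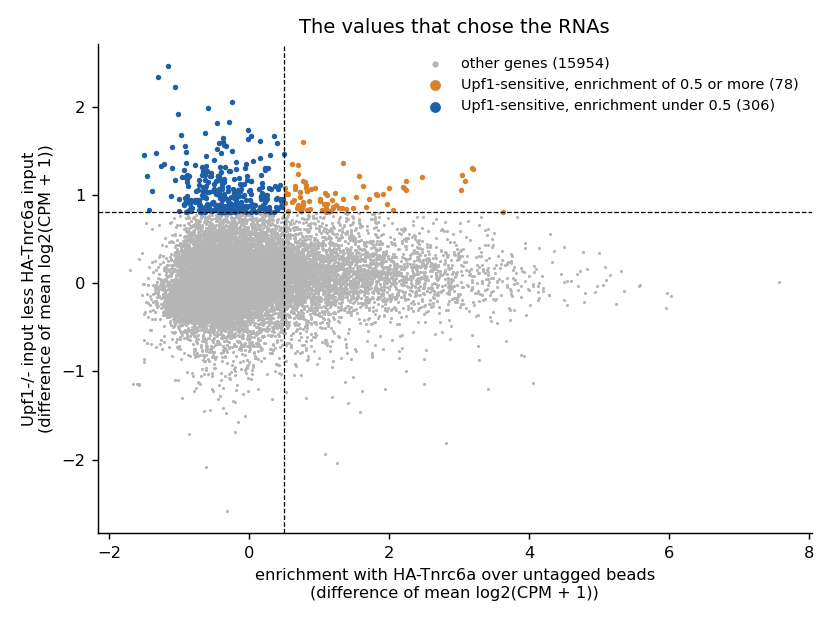
Each point is 1 of the 16338 genes with a level of at least 1 in HA-Tnrc6a inputs, with its enrichment over untagged cells on the x axis and its input difference between cells labelled Upf1 knockout and HA-Tnrc6a cells on the y axis, both as differences of mean log2(CPM + 1). Dashed lines mark the limits of 0.5 and 0.8, the 306 selected RNAs are blue and the 78 enriched genes above the same Upf1 limit are orange.

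Because these values chose the RNAs, the fit of the same contrasts is given as a description. In inputs labelled Upf1 knockout against HA-Tnrc6a inputs, all 306 were higher at an adjusted p under 0.05, where 29.5% of 19444 genes tested were higher and 29.0% were lower. For 276 of the 306, all 6 inputs labelled Upf1 knockout lay above all 6 HA-Tnrc6a inputs, and the share over all genes is not given here. Such separation of these inputs, given for single genes below, describes the selection and is no support for it. In HA-Tnrc6a enrichment over untagged cells, 43 of the 306 were higher and 131 were lower, where 29.8% and 32.2% of 19993 genes were. Taking each RNA over all 306, the mean level per library was 3.59 to 3.72 in HA-Tnrc6a inputs, 3.56 to 3.67 in Ago2 knockout inputs and 4.66 to 4.797 in inputs labelled Upf1 knockout. In untagged inputs it was 3.64 to 3.82. The Ago2 knockout and untagged inputs thus lay near the HA-Tnrc6a inputs, and the inputs labelled Upf1 knockout stood above all of them. On the beads the mean level was 3.51 to 3.86 for untagged cells, 3.23 to 3.35 for HA-Tnrc6a, 3.18 to 3.28 for Ago2 knockout and 4.11 to 4.21 for Upf1 knockout labels.

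**Figure D2:**
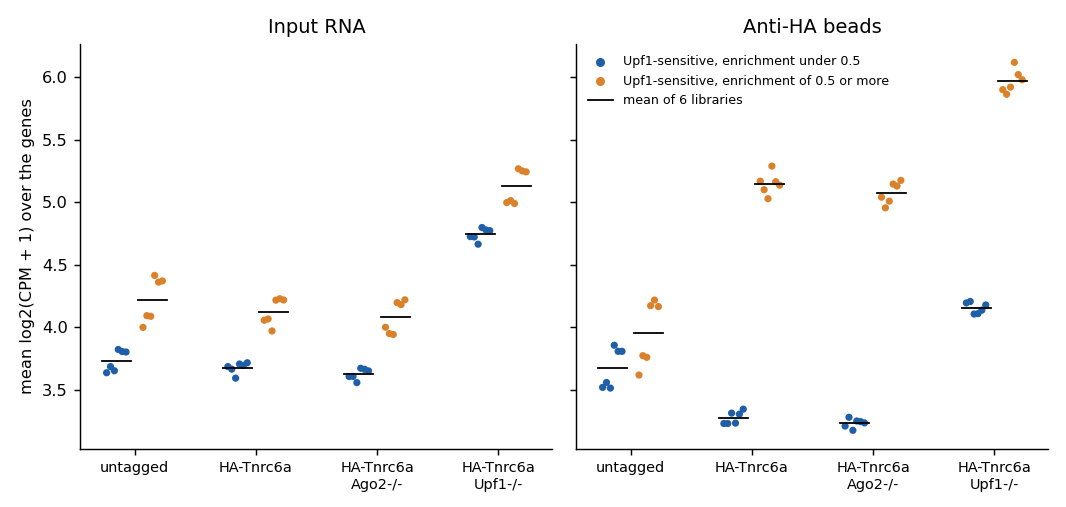
Each point is 1 library, placed by genotype on the x axis, and the y axis gives the mean log2(CPM + 1) over the 306 RNAs with an enrichment under 0.5 (blue) or the 78 with 0.5 or more (orange), with black lines at the mean of 6 libraries. The blue points of HA-Tnrc6a and Ago2 knockout IPs lie below those of their inputs, while the orange points lie above theirs.

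Host genes of snoRNAs, most of the selected ones noncoding, were the listed group with the most selected genes. Of 22 listed host genes, 20 were measured, 10 were among the 306 RNAs and none was among the 78 enriched ones. The 10 were Gas5, Snhg1, Snhg5, Snhg6, Snhg8, Snhg12, Snhg15, Zfas1, Epb41l4aos and Eif4a2, the last of which encodes a translation initiation helicase. Of the 20 measured, 15 were higher and 2 were lower in inputs labelled Upf1 knockout, where 29.5% and 29.0% of all genes tested were. That contrast chose the RNAs. In RefSeq positions (GRCm38.p6), 14 of the 275 selected genes with a position contained a snoRNA gene, or 5.09%, against 2.28% of 14042 genes with a level of at least 1 and 0 of 74 enriched genes. These include 2410006H16Rik, which was named after its values were seen because it had the largest input difference of all 306. It spans Snord49a, Snord49b and Snord65.

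Start sites of these hosts are shown because a TATA-containing window and a pyrimidine start, as in ribosomal protein genes, can be read directly from them. Each line gives 35 bases before the RefSeq start in lower case and the first 15 transcribed bases in capitals, 5′ to 3′ on the strand of the gene, build GRCm38.p6.
Gas5, chr1:161035131-161035180, plus strand: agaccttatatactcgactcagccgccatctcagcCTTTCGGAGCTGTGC
Snhg1, chr19:8723452-8723501, plus strand: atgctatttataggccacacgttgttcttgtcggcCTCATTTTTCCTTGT
Snhg12, chr4:132308643-132308692, plus strand: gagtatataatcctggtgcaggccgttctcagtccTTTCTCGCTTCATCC
Snhg8, chr3:123508322-123508371, minus strand: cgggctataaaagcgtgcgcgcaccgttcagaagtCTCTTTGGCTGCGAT
Snhg5, chr9:88522883-88522932, minus strand: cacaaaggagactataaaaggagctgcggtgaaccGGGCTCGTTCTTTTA
Zfas1, chr2:167062899-167062948, plus strand: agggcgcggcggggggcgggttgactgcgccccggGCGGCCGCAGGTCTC

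The letters TATA, which read the same on both strands, occurred in the 35 bases before a start in 5 of the 8 selected hosts with a RefSeq promoter, namely all those shown except Zfas1. Eif4a2 and Snhg15, which are not shown, had none. Of the 15 listed hosts with a promoter and a level of at least 1, 5 had these letters. They occurred in 18 of the 202 selected genes with a promoter, or 8.91%, and in 4.31% of 10681 genes with a level of at least 1. For Gas5, which has a pair of RefSeq starts, the start shown is the one with TATA. The first 5 bases were all C or T in Gas5, Snhg12 and Snhg8, and in 4 of the 15 listed hosts. The same held for 21 of the 202 selected genes, or 10.4%, and for 5.10% of the 10681 genes. These matches describe letters in the sequence, not the use of a site.

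Zfas1, host of Snord12, had the largest input difference among selected genes with an assigned name. Its inputs ran from 50.5 to 89.6 CPM (median 66.0) in HA-Tnrc6a cells and from 263 to 456 CPM (median 337) in cells labelled Upf1 knockout. Its IPs ran from 26.8 to 90.9 CPM (median 47.4) in Ago2 knockout cells and from 134 to 302 CPM (median 200) in cells labelled Upf1 knockout. Neither pair of groups overlapped. In untagged IPs Zfas1 was at 142 to 197 CPM, above all untagged inputs at 52.6 to 98.7 CPM, so the beads recovered it without a tag.

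Snhg5, a noncoding host of box C/D snoRNAs, was at 78.3 to 92.9 CPM (median 88.3) in HA-Tnrc6a inputs and at 322 to 339 CPM (median 332) in inputs labelled Upf1 knockout. On the beads it was at 37.3 to 60.6 CPM (median 46.2) in Ago2 knockout cells and at 135 to 178 CPM (median 139) in cells labelled Upf1 knockout. All libraries labelled Upf1 knockout were thus above all of the reference libraries. The median of 2410006H16Rik was 31.9 CPM for HA-Tnrc6a inputs against 178 CPM for those labelled Upf1 knockout, without overlap (25.7 to 38.2 against 160 to 192 CPM).

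Gas5, a growth-arrest transcript used as a standard indicator of nonsense-mediated decay, was at 278 to 478 CPM (median 367) in HA-Tnrc6a inputs and at 522 to 797 CPM (median 645) in inputs labelled Upf1 knockout. In the IPs it was at 113 to 340 CPM (median 196) in Ago2 knockout cells and at 272 to 591 CPM (median 342) in cells labelled Upf1 knockout. Those IP groups overlapped when all 6 libraries were compared. Untagged beads held 735 to 1019 CPM of Gas5 against 285 to 512 CPM in their inputs, and its enrichment was -1.44.

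Recovery on untagged beads was common to the hosts. The summed CPM of the 10 selected hosts was 2665 to 3552 in untagged IPs and 1309 to 1852 in untagged inputs. In HA-Tnrc6a cells it was 1056 to 1676 in IPs and 1246 to 1752 in inputs. For 9 of the 10, the untagged IP level was above the untagged input level, with a median difference of 0.72 on the log2 scale. Over all 306 RNAs this held for 99. The median enrichment of the 10 hosts was -1.21, between -1.51 for Snhg12 and -0.15 for Snhg15. How far bead background set these low values was not tested.

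Reads of overlapping genes limit some of these values. Zfas1 overlaps Znfx1, Gas5 overlaps Zbtb37, and 122 of the 275 selected genes with a position overlap another RefSeq gene. The kit was stranded, but whether counting used strand is not given in the sources used here, so reads of such pairs cannot be told apart.

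Outside the hosts, Pvt1, a long noncoding RNA next to Myc, was at 12.003 to 13.7 CPM in HA-Tnrc6a inputs (median 12.3) and at 32.4 to 66.8 CPM (median 47.6) in inputs labelled Upf1 knockout. Its IPs were at 7.28 to 11.7 CPM (median 8.65) in Ago2 knockout cells and at 33.0 to 46.2 CPM (median 38.3) in cells labelled Upf1 knockout. Neither comparison had overlapping groups. Long noncoding RNAs were 24 of the 275 selected genes with a RefSeq biotype, or 8.73%, against 3.27% of 14080 genes with a level of at least 1 and 2 of 74 enriched genes. The 24 include 2410006H16Rik and all of the 10 selected hosts but Eif4a2, so they are not a class separate from the hosts. All 24 had an enrichment below 0, with a median of -0.87 against -0.30 for the 240 protein-coding genes. Enrichment entered the selection, so this is a description. In the edgeR fit of that contrast, 2 of the 24 were above 0, with a median of -0.86. There 194 of 460 long noncoding genes with a level of at least 1 were above 0, with a median of -0.16. By their annotated length, the selected genes had a median of 3111.5 bases, against 4420.5 for the 78 enriched genes and 3709 for genes with a level of at least 1.

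Integrated stress response genes, which cells induce when translation initiation factor eIF2 is phosphorylated, were split between both sets of Upf1-sensitive RNAs. Of 25 listed genes, Ddit3, Nupr1 and Ppp1r15a were among the 306, and Atf3, Atf4 and Trib3 were among the 78 enriched genes. In inputs labelled Upf1 knockout, 17 of the 25 were higher and 5 were lower, where 29.5% and 29.0% of all genes tested were. Enrichment was -0.33 for Ddit3, -0.97 for Nupr1 and 0.19 for Ppp1r15a, and it was 1.34 for Atf4, 2.21 for Atf3 and 1.34 for Trib3.

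Ddit3 encodes CHOP, a transcription factor of the stress response, and its mRNA has an upstream open reading frame. It was at 14.4 to 19.4 CPM (median 16.8) in HA-Tnrc6a inputs and at 43.5 to 60.1 CPM (median 52.0) in inputs labelled Upf1 knockout. In IPs it was at 5.50 to 9.94 CPM (median 7.57) in Ago2 knockout cells and at 25.4 to 30.0 CPM (median 27.0) in cells labelled Upf1 knockout. The groups did not overlap in either fraction. Ago2 knockout inputs were at 8.77 to 12.4 CPM, below all HA-Tnrc6a inputs.

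Nupr1 encodes a small stress-induced nuclear protein. It was at 26.5 to 30.2 CPM (median 28.1) in HA-Tnrc6a inputs and at 84.8 to 100 CPM (median 92.6) in inputs labelled Upf1 knockout. In IPs it was at 7.14 to 13.2 CPM (median 9.32) in Ago2 knockout cells and at 25.2 to 48.1 CPM (median 28.6) in cells labelled Upf1 knockout. These groups did not overlap, and in each tagged genotype every IP was below every input.

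Ppp1r15a encodes GADD34, the phosphatase subunit that reverses eIF2 phosphorylation, and only in Ago2 knockout cells were all its IPs above all inputs. Its HA-Tnrc6a IPs, at 36.4 to 45.4 CPM, overlapped their inputs, and so did IPs labelled Upf1 knockout. It was at 28.9 to 46.3 CPM (median 38.2) in HA-Tnrc6a inputs and at 63.5 to 91.3 CPM (median 78.7) in inputs labelled Upf1 knockout. Its IPs held 64.0 to 73.4 CPM (median 69.9) in Ago2 knockout cells, above the Ago2 knockout inputs at 37.4 to 45.8 CPM. IPs labelled Upf1 knockout held 76.2 to 90.4 CPM (median 78.1), which is just above all Ago2 knockout IPs.

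The amino acid response element of ATF4 and CHOP target genes, searched as TGATGNAA on either strand in the 250 bases before a start, occurred in Nupr1 and not in the windows of Ddit3 and Ppp1r15a. Pck2, the mitochondrial enzyme that makes phosphoenolpyruvate, also had a match and was named after its values and promoter were seen. The match, here on the reverse strand, is in capitals, and it begins 110 bases before the Nupr1 start and 103 bases before the Pck2 start.
Nupr1, chr7:126625562-126625591, minus strand: aaagggccagaTTGCATCAgacagggcttg
Pck2, chr14:55540152-55540181, plus strand: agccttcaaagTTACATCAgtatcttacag

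Matches occurred in 7 of the 202 selected genes with a promoter, or 3.47%, against 2.32% of 10681 genes with a level of at least 1. Among 22 stress response genes with a promoter and a level of at least 1, 7 had a match.

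Of 19 listed factors of nonsense-mediated decay, Smg1 and Smg9 were among the 306 RNAs. Smg1, the kinase that phosphorylates Upf1, was at 84.1 to 112 CPM (median 96.5) in HA-Tnrc6a inputs and at 150 to 198 CPM (median 172) in inputs labelled Upf1 knockout. Smg9, a subunit of the Smg1 kinase complex, was at 12.9 to 18.03 CPM (median 14.6) and at 32.7 to 40.4 CPM (median 36.3) in the same groups. Over the list, 11 factors were higher and 6 were lower in inputs labelled Upf1 knockout, where 29.5% and 29.0% of all genes tested were. Smg5, Smg6 and Upf2 lay just under the Upf1 limit, at 0.79, 0.76 and 0.72, and were named after their values were seen. The lower ones were Smg8, Nbas and the exon junction proteins Eif4a3, Rbm8a, Magoh and Magohb.

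**Figure D3:**
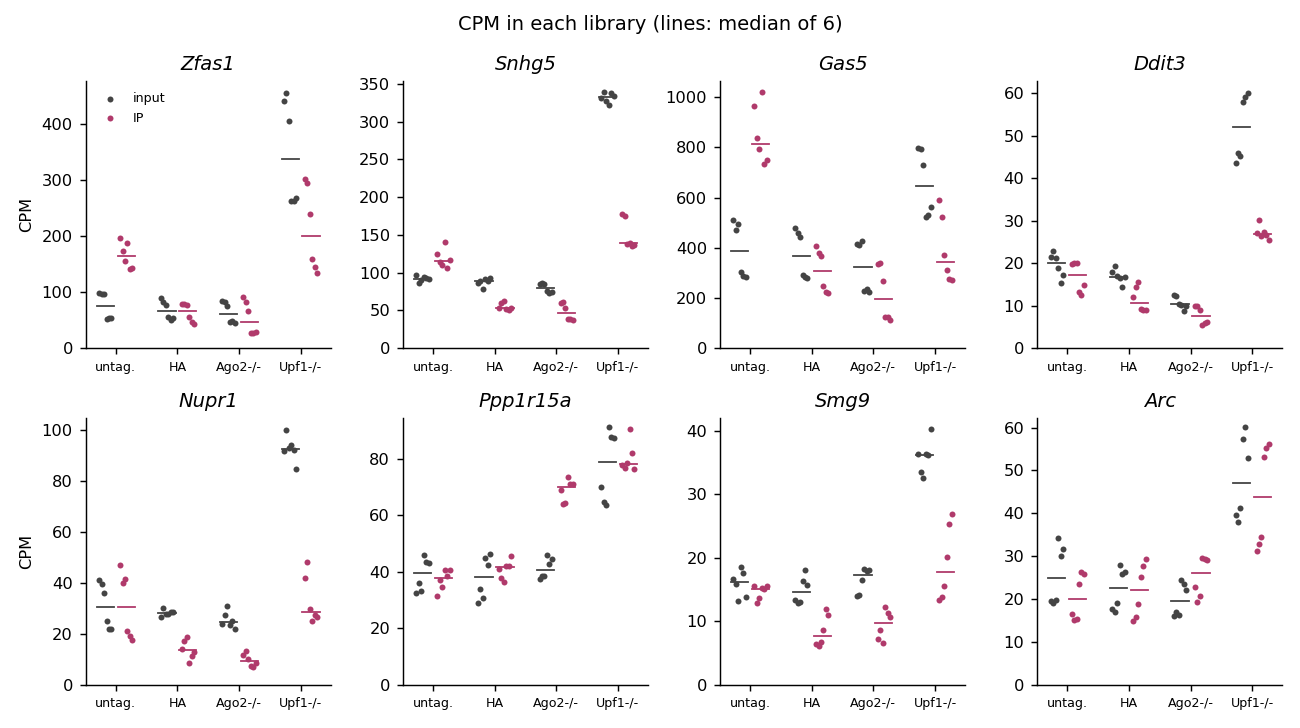
Each point is the CPM of 1 gene in 1 library, with genotypes on the x axis, inputs in dark grey, IPs in dark pink and lines at the median of 6 libraries, and every y axis starts at 0. In all 8 genes the inputs labelled Upf1 knockout lie above the HA-Tnrc6a inputs, and IPs of Ppp1r15a in Ago2 knockout cells lie above their inputs.

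None of 12 SR proteins and only Hnrnph3 of 14 hnRNP and PTB proteins was selected. Hnrnph3, an RNA-binding protein, was at 31.5 to 40.9 CPM (median 36.2) in HA-Tnrc6a inputs and at 64.1 to 75.8 CPM (median 67.9) in inputs labelled Upf1 knockout. In these inputs 5 SR proteins were higher and 6 were lower, and 4 hnRNP and PTB proteins were higher and 9 were lower. Of all genes tested, 29.5% were higher and 29.0% were lower.

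Gadd45b, a growth arrest and DNA damage-inducible gene, was at 5.92 to 11.8 CPM (median 8.94) in HA-Tnrc6a inputs and at 14.4 to 37.9 CPM (median 25.7) in inputs labelled Upf1 knockout, and all 3 Gadd45 genes were higher in the latter. Arc, an immediate early gene whose mRNA carries introns in its 3′ untranslated region, was at 16.99 to 27.9 CPM (median 22.5) and at 38.1 to 60.0 CPM (median 47.1) in the same groups. Arc was the only selected gene of 14 immediate early genes. Of the 12 that were tested in inputs, 5 were higher and 4 were lower. Eomes, a mesendoderm transcription factor, was the only selected gene of all marker lists, at 5.33 to 7.11 CPM (median 6.10) and 8.404 to 16.7 CPM (median 11.9). No gene of the p53 target list (6 higher and 6 lower of 19 tested) or of the germline list (3 higher and 10 lower of 15) was selected. Of all genes tested in these inputs, 29.5% were higher and 29.0% were lower, and the p53 targets were near both shares.

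Among the named genes with the largest input differences, Rassf1, a Ras-association domain scaffold, was at 14.7 to 21.1 CPM (median 17.8) in HA-Tnrc6a inputs and at 56.0 to 65.6 CPM (median 61.0) in inputs labelled Upf1 knockout. Pea15a, a death effector domain protein that binds ERK, was at 25.5 to 33.7 CPM (median 31.4) and at 79.4 to 117 CPM (median 100.4). Arf2, a small GTPase of the ARF family, was at 17.1 to 23.6 CPM (median 19.7) and at 57.1 to 75.1 CPM (median 64.2). None of the 3 had overlapping groups in these inputs, which entered the selection. Rapgef3, a cAMP-activated exchange factor for Rap, did overlap, at 8.57 to 33.8 CPM (median 20.6) against 29.1 to 118 CPM (median 73.0). Within each group its 3 low values were libraries 1 to 3 and its 3 high values libraries 4 to 6, and inside each of these sets the groups did not overlap. Lexm and Cidea, a lipid droplet protein, were low RNAs, with medians of 2.66 and 2.51 CPM in HA-Tnrc6a inputs and 11.2 and 9.71 CPM in inputs labelled Upf1 knockout.

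The 5 selected genes with the highest level in HA-Tnrc6a inputs, on the CPM scale that is not corrected for length, were Eif4a2, Gas5, Peg10, Akr1a1 and Sqstm1. Eif4a2 was at 520 to 694 CPM (median 599) in HA-Tnrc6a inputs and at 985 to 1393 CPM (median 1182) in inputs labelled Upf1 knockout. Peg10, an imprinted gene derived from a retrotransposon, overlapped between these groups, at 114 to 345 CPM (median 220) and 238 to 505 CPM (median 362). Akr1a1, an aldehyde reductase, did not, at 175 to 200.5 CPM (median 185) and 315 to 367 CPM (median 327). Sqstm1 encodes the autophagy receptor p62, and was at 114 to 153 CPM (median 128) and 220 to 249 CPM (median 225), again without overlap.

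Whether the RNAs were also higher on the beads was tested between IPs labelled Upf1 knockout and Ago2 knockout IPs, since neither group of libraries entered the selection. Their lysates are not all independent of it, because the same lysates labelled Upf1 knockout gave the inputs that did, and this contrast holds both the change in Upf1 and that in Ago2. It has no input term, so it compares levels on the beads and cannot tell recovery from input level. The median IP less input level of the 306 was -0.63 with the Upf1 knockout label and -0.44 in Ago2 knockout cells. Over genes with a level of at least 1 these medians were -0.38 and -0.28. The inputs labelled Upf1 knockout in this difference also chose the RNAs. In edgeR's quasi-likelihood test with Benjamini-Hochberg adjustment over 18886 genes, 295 of the 306 RNAs rose and 1 fell, where 30.1% of all genes rose and 27.1% fell. The median log2 change of the 306 was 1.04, against 0.91 for the 78 enriched genes, of which 76 rose, and 0.01 for all genes. At least 2-fold rises numbered 174 of the 306 and 33 of the 78, where 4.42% of all genes rose that far. For 210 of the 306, all 6 IPs labelled Upf1 knockout were above all 6 Ago2 knockout IPs, which was so for 10.3% of the genes tested.

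The snoRNA hosts all rose, 10 of 10, with a median log2 change of 1.24. Zfas1 rose by 2.12 ± 0.08 (standard error, 6 libraries a group; edgeR adjusted p = 3.74e-16), Snhg5 by 1.68 ± 0.06 (edgeR adjusted p = 2.07e-16) and Gas5 by 0.96 ± 0.09 (edgeR adjusted p = 2.87e-08). 2410006H16Rik rose by 2.31 ± 0.08. The 24 long noncoding RNAs, which include all of the 10 hosts but Eif4a2, also all rose, with a median of 1.30. Of 240 protein-coding genes 231 rose, with a median of 1.01. Among the stress response genes, Ddit3 rose by 1.86 ± 0.07 (edgeR adjusted p = 3.74e-16) and Nupr1 by 1.79 ± 0.09 (edgeR adjusted p = 2.67e-13), whereas the rise of Ppp1r15a was 0.23 ± 0.06 (edgeR adjusted p = 0.00124). Smg9 rose by 1.02 ± 0.09 and Smg1 by 0.61 ± 0.09.

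The largest rises were in RNAs of low level. Gm11427 was at 0.149 to 0.749 CPM (median 0.397) in Ago2 knockout IPs and at 2.09 to 6.90 CPM (median 4.46) in IPs labelled Upf1 knockout, a log2 change of 3.27 ± 0.26. AI662270 followed with 2.74 ± 0.20, Crxos with 2.50 ± 0.15, Pnma5 with 2.41 ± 0.09 and Gm13261 with 2.39 ± 0.16. Pnma5, a paraneoplastic antigen family gene, was the most abundant of these 5, at 2.73 to 4.01 CPM (median 3.12) in Ago2 knockout IPs and 12.8 to 24.7 CPM (median 15.9) in IPs labelled Upf1 knockout. Its Ago2 knockout inputs, at 5.06 to 7.04 CPM, were below the HA-Tnrc6a inputs at 7.78 to 23.4 CPM.

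Msc, a basic helix-loop-helix repressor, was the only 1 of the 306 that fell, by 0.21 ± 0.05 on the log2 scale (edgeR adjusted p = 0.00216). Its inputs were at 16.4 to 36.3 CPM (median 28.3) in HA-Tnrc6a cells, 30.7 to 64.4 CPM (median 47.9) in Ago2 knockout cells and 34.4 to 66.4 CPM (median 50.1) in cells labelled Upf1 knockout. The ranges of both knockout inputs thus overlapped over most of their width. A further 10 RNAs passed no threshold in this test, with log2 changes from -0.05 for Msrb2 to 0.36 for Rab11fip5.

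**Figure D4:**
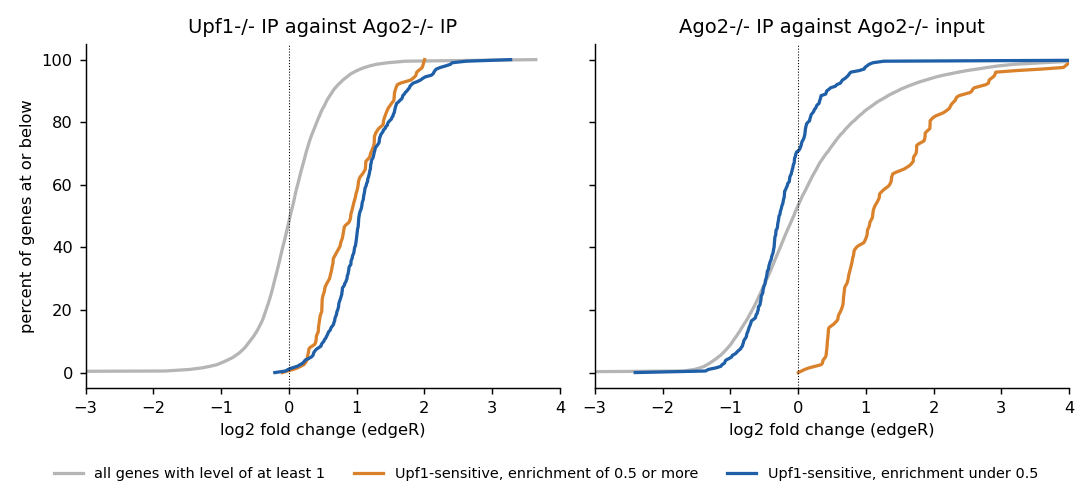
Each line gives, for a log2 fold change on the x axis, the percent of genes at or below it, for the 306 RNAs (blue), the 78 enriched genes (orange) and all genes with a level of at least 1 (grey). In the left panel both sets of Upf1-sensitive RNAs lie to the right of all genes, with medians of 1.04 and 0.91, and in the right panel they separate, with medians of -0.28 and 1.10.

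Whether the RNAs were left behind by the beads without Ago2 was asked in IPs against inputs of Ago2 knockout cells, none of which entered the selection. This contrast shares the Ago2 knockout IPs with the one above. Its cells carry the same tag as those whose enrichment set the 306 and the 78 apart, so it is not independent of that limit. Across the 306, enrichment and the log2 ratio of IP to input here correlated at a Pearson r of 0.48. The share over all genes with an enrichment under 0.5 is not given here. Bead background is not subtracted in this contrast. Of the 306 RNAs, 160 fell and 52 rose in the same edgeR test, where 38.3% of 19542 genes fell and 36.0% rose. Of the 16332 tested genes with a level of at least 1, 42.0% fell and 37.8% rose. Both backgrounds include genes with an enrichment of 0.5 or more, which the selection left out of the 306. An excess of falls among the 306 therefore cannot be read from them. The median log2 ratio of the 306 was -0.28, against -0.06 for all genes. Of the 78 enriched genes 77 rose, with a median of 1.10. Scaled by library totals instead, 224 of the 306 fell and 31 rose with a median of -0.56, and the median of all genes was then -0.33. Among the 69 selected RNAs with an enrichment of 0 or more, 33 rose and 7 fell, and among the 237 below 0, 19 rose and 153 fell.

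Nupr1 fell by 1.14 ± 0.07 in Ago2 knockout IPs against inputs, Epb41l4aos by 1.34 ± 0.08 and Hnrnph3 by 0.76 ± 0.07 on the log2 scale. Epb41l4aos was at 16.3 to 37.6 CPM (median 26.1) in these inputs and at 5.05 to 14.4 CPM (median 8.54) in the IPs, without overlap. Of the 10 hosts 7 fell and 1, Eif4a2, rose, and of the 24 long noncoding RNAs, which include the other hosts, 19 fell and 1 rose. The sets of libraries differed in size here: 10 of the 24 fell and 4 rose in libraries 1 to 3, against 22 and 0 in libraries 4 to 6. Of 460 long noncoding genes with a level of at least 1, 111 fell and 137 rose in libraries 1 to 3, and 164 fell and 116 rose in libraries 4 to 6. Of all 306 RNAs, 104 fell in libraries 1 to 3, or 34.0%, against 31.3% of all genes and 36.0% of genes with a level of at least 1. In libraries 4 to 6, 160 fell, or 52.3%, against 35.0% of all genes and 38.3% of genes with a level of at least 1. These backgrounds also include genes over the enrichment limit, so they cannot show whether the 306 RNAs stood out in either set. The difference between the sets was not tested. The rises included Ppp1r15a at 1.02 ± 0.05, Sqstm1 at 0.98 ± 0.05, Rassf1 at 0.72 ± 0.07, Eomes at 0.65 ± 0.09 and Arc at 0.62 ± 0.06.

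Rab11fip5, a Rab11 effector named after its values were seen, was the exception in size. It was at 8.04 to 12.6 CPM (median 10.1) in Ago2 knockout inputs and at 218 to 1858 CPM (median 809) in the IPs, 74.7-fold higher. Untagged IPs held 85.9 to 3210 CPM (median 1418) against 7.35 to 10.1 CPM in untagged inputs. Beads thus recovered it without a tag, and its enrichment over untagged cells was 0.09, or -1.32 and 1.498 when each set of libraries was taken alone.

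The count table numbers the libraries of a group 1 to 6. Numbers 1 to 3 were taken as experiment 3 and 4 to 6 as experiment 4, which no label states. When the RNAs were selected in numbers 1 to 3 alone, 314 genes qualified, and 298 of these were higher and 1 was lower in inputs labelled Upf1 knockout of numbers 4 to 6 (edgeR on 6 libraries), with a median log2 change of 0.93. Of all genes 26.6% were higher in that test. In the other direction, 363 genes were selected in numbers 4 to 6, and 333 were higher and 2 were lower in numbers 1 to 3, with a median of 0.88, where 24.6% of genes were. Of the 306 RNAs, 226 were also selected in numbers 1 to 3 alone, 253 in numbers 4 to 6 alone and 176 in each. The genes selected in numbers 1 to 3 had a median enrichment of -0.45 in numbers 4 to 6, and 309 of the 314 were below 0.5 there. Those selected in numbers 4 to 6 had a median enrichment of -0.25 in numbers 1 to 3, and 339 of the 363 were below 0.5.

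Both sets of libraries showed the rise on the beads for most RNAs, and its size differed for some, depending on the scaling. In numbers 1 to 3, 288 of the 306 rose between Ago2 knockout IPs and IPs labelled Upf1 knockout, where 22.5% of all genes did. In numbers 4 to 6, 289 rose, against 26.2% of all genes. The difference between the sets, tested as an interaction, was larger in numbers 4 to 6 for 30 of the 306 and smaller for 10, where 3.92% and 2.63% of all genes were. Of the 10 snoRNA hosts, 5 rose more in numbers 4 to 6, namely Zfas1, Snhg5, Snhg12, Snhg1 and Gas5, and none rose less. Scaled by library totals, which moved the median difference of all genes from 0.02 to -0.11, the split of the 306 was 14 larger and 16 smaller, and of the hosts only Zfas1 kept its call (difference 0.60, edgeR adjusted p = 0.0181). Gas5 rose by 0.60 in numbers 1 to 3 and by 1.32 in numbers 4 to 6, a difference of 0.72 ± 0.18 (edgeR adjusted p = 0.0205, and 0.0888 with library totals). Peg10 went the other way, with 1.32 and 0.55, a difference of -0.77 ± 0.11 (edgeR adjusted p = 4.67e-05). Depth moved with the sets, since totals were 11471544 to 19595405 counts in numbers 1 to 3 and 25724085 to 73845953 in numbers 4 to 6, and its part in these differences was not tested.

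**Figure D5:**
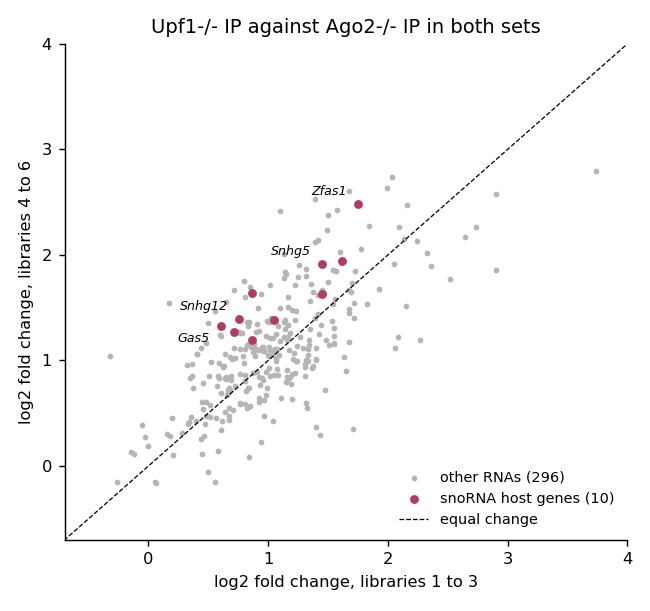
Each point is 1 of the 306 RNAs, with its log2 fold change between IPs labelled Upf1 knockout and Ago2 knockout IPs in libraries 1 to 3 on the x axis and in libraries 4 to 6 on the y axis, and the dashed line marks equal change. The 10 snoRNA host genes (dark pink) all lie above 0 on both axes and above the dashed line, as Gas5 does with 0.60 and 1.32.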

How the data were processed

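Stranded total RNA libraries of inputs and anti-HA immunoprecipitates were counted per gene by the authors, and the deposited table holds raw read counts, used here as they stand, and gene lengths in bases (another unit, the authors' own). The table's 48 columns of RPKM were not used. STAR 2.7.3a, bcl2fastq 2.20, GRCm38 and mm10 are named in the submitters' processing notes, and the counting tool, annotation and strand setting are not given in the sources used here. In 48 pairs of libraries of a group and set, the lowest chi-square per degree of freedom was 1.96, so all were kept as replicates. The rule used CPM from column totals with a pseudocount of 1. edgeR 4.0.16 (R 4.3.3, limma 3.58.1) used TMM, filterByExpr with a minimum count of 10, robust quasi-likelihood fits, 1 coefficient per group and set, contrasts averaged over both sets, two-sided tests and Benjamini-Hochberg adjustment over all genes, with an adjusted p under 0.05 as the threshold. The pipeline was tested on simulated data. The alternatives were DESeq2 1.42.0, other scalings, no filter, a replicate block, each set of libraries alone, left-out libraries and other selection limits. Named genes are Ago2, Tnrc6a, Upf1, the 10 largest input differences among named genes, the largest IP changes, all list members, the 5 highest levels and the genes beside each limit. The members and lists were chosen with earlier results of these data known. Promoters and positions are from RefSeq (GRCm38.p6).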

Additional observations from a re-analysis of the deposited data

Results flagged for a closer look

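Among 368 groups of 6 libraries examined, 6 had a library far from the others, and chance alone sets apart about 1 group in 20. The highest value stood apart for Snhg15 in untagged IP number 4 (66.9 CPM, next 56.1), Smg1 in the Upf1 knockout-labelled IP number 6 (137 CPM, next 101), Bend6 in HA-Tnrc6a input number 2 (1.58 CPM, next 1.09), Mef2b in HA-Tnrc6a input number 3 (7.78 CPM, next 5.59) and Mef2b in untagged IP number 1 (9.42 CPM, next 5.77). The lowest value stood apart for Hnrnph3 in Ago2 knockout IP number 3 (11.4 CPM, next 15.7).

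In 11 named RNAs, the rise from Ago2 knockout IPs to IPs labelled Upf1 knockout differed between libraries 1 to 3 and 4 to 6 by edgeR's interaction test. It was larger in 4 to 6, on the log2 scale, by 0.93 for Pvt1, 0.86 for Eomes, 0.75 for Ddit3, 0.73 for Zfas1, 0.72 for Gas5, 0.64 for Snhg12, 0.55 for Snhg1, 0.53 for Hspb8 and 0.47 for Snhg5. The difference was -1.04 for Lexm and -0.77 for Peg10. Scaled by library totals, the calls of Gas5, Snhg1, Snhg5 and Snhg12 were lost (edgeR adjusted p from 0.0597 to 0.127) and the other 7 kept theirs.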

How the results depend on the processing

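The number of selected RNAs was 141 with an input difference of at least 1, 196 with a level of at least 3, 180 with the Upf1 and enrichment limits met in each set of libraries (176 with the level limit too) and 144 with a pseudocount of 5, and stayed within 1.5 times under the other selection settings. Requiring 2-fold as well left 174 of 296 calls between the IPs and 22 of 212 calls between Ago2 knockout IP and input. Leaving out each library in turn gave 294 to 297 and 200 to 209 calls, and 290 to 298 and 328 to 334 for the genes selected in the other set of libraries. With a replicate block on the library number the calls were 297, 212, 299 and 335 (56 in place of 40 for the difference between the sets of libraries, an alternative added after seeing the data). Deviations of same-numbered IPs correlated at 0.24, 0.23, 0.30, 0.13, 0.08 and -0.10 for numbers 1 to 6, and at most 0.10 in the other comparisons. Not every pair exceeded 0.1, so the numbers were not taken as pairs. Among 810 alternative values of 45 named RNAs, 807 kept direction and side of the threshold. Rab11fip5 was at -0.32 in libraries 1 to 3 alone, 0.36 in both sets and 1.02 in libraries 4 to 6 alone, and Ppp1r15a missed the threshold in libraries 1 to 3 alone (0.19, edgeR adjusted p = 0.0973). With library totals, RLE factors and no count filter, also added later, the difference between the sets of libraries was called for 30, 38 and 40 RNAs. The cause was not tested. RNAs near 1 CPM rest on few counts in the shallower libraries.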
